A study of Mus musculus with 23 samples.

Results

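Apc, Ctnnb1 (the gene of beta-catenin), the DNA-binding partners of beta-catenin Tcf7, Tcf7l2 and Lef1, and the intestinal transcription factors Cdx1, Cdx2, Hnf4a and Klf4 were followed across colon tissue of mice that develop colon tumors. The 9 genes were chosen by name from 55450 gene rows, and all 9 had counts in every tissue group. The study asked whether a bacterial bile salt hydrolase (BSH), an enzyme that removes the amino acid from conjugated bile acids, alters tumor growth in the colon. All animals were male Cdx2Apcf/w mice on a C57BL/6 background, 6 to 8 weeks old at the start, on a 60% high-fat diet (HFD). They carried a CDX2-cre transgene and 1 floxed Apc allele beside 1 wild-type allele, so that the recombinase, driven by the Cdx2 promoter, removes part of 1 Apc copy in intestinal epithelium. There was no group without the transgene, the diet or the bacteria.

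After antibiotic water, every group was colonized with Bacteroides fragilis 638R, either with the empty vector (BF BSHlow, BF638R bsh- in the labels) or with the bsh gene of a second B. fragilis strain (BF BSHhigh, BF638R bsh+). Normal colon was taken at 2 weeks (4 libraries for each strain). At 12 weeks non-tumor colon (NT, 4 for each strain) and tumor (T, 4 BF BSHlow and 3 BF BSHhigh, called a, b and c) were taken. The labels do not say whether tumor and non-tumor libraries came from the same mice, nor that libraries of a group came from separate mice. A figure legend of the paper calls the 12-week samples independent and their sample sizes pooled. It does not say how many mice they came from. The p-values below therefore measure the spread between these libraries. Sequencing depth was 12401388 to 17903008 expected counts per library.

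APC is the scaffold of the destruction complex that marks beta-catenin for degradation. Without it beta-catenin accumulates, enters the nucleus and, bound to a TCF/LEF protein, switches on WNT target genes, which keeps intestinal stem cells dividing. CDX1, CDX2 and HNF4A hold the intestinal identity of epithelial cells, and KLF4 promotes cell cycle exit and goblet cell maturation. Most of this control acts on the proteins, which RNA counts do not measure.

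Promoters are shown first for Tcf7 and Lef1, the members that rose most in tumors, and for Cdx2, the member that differed most between the time points. RefSeq start sites on GRCm38.p6 gave 14 windows, from 250 bases before to 50 after a start, for 7 of the 9 members. Apc and Cdx1 are named without a sequence. In the lines below, 5′ to 3′ on the strand of the gene, capitals mark a CDX motif (TTTATNG) or a KLF motif (GGGTGTGG). Tcf7 has its second window at chr11:52282546-52282845 on the minus strand, Lef1 its first at chr3:131110047-131110346 on the plus strand, and Cdx2 its only window at chr5:147307200-147307499 on the minus strand. Neither motif was in the Lef1 and Cdx2 lines.
Tcf7: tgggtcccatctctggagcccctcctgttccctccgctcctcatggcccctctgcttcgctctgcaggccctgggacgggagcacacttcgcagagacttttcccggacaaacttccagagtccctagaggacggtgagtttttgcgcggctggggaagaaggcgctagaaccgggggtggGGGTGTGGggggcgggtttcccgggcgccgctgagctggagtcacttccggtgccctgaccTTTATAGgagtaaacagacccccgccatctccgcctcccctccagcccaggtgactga
Lef1: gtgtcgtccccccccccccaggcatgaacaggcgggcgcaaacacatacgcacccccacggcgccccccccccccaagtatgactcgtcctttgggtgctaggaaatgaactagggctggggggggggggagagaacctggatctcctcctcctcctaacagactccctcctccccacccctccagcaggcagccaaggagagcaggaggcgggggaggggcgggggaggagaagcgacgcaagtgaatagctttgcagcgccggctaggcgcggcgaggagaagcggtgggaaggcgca
Cdx2: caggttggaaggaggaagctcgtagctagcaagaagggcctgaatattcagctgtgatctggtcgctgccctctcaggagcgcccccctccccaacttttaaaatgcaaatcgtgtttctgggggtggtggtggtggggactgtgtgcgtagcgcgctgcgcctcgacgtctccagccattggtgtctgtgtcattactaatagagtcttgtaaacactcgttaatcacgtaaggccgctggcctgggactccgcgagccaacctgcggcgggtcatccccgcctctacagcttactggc

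The second Tcf7 window held a KLF motif 69 bases and a CDX motif 8 bases before the start. Over both strands of all 32544 windows in the table, 3.57% held the KLF motif and 10.8% the CDX motif. Neither TCF/LEF motif searched (CTTTGAT and CTTTGAA, in 8.67% of all windows together) nor the HNF4 motif (CAAAGTNCA, in 1.43%) was in any of the 14 windows. A CDX motif also lay in the second Tcf7l2 window and the fourth Lef1 window, and a KLF motif in the first Ctnnb1 window. A match of letters is a description and not a binding site, and its absence says only that these letters are not in these windows.

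The tumor comparison came first. In tumors Tcf7, Lef1 and Ctnnb1 were higher and Apc, Tcf7l2, Cdx1, Cdx2, Hnf4a and Klf4 were lower than in non-tumor colon. Averaged over both strains, 3 of the 9 members rose and 6 fell at an adjusted p under 0.05 (edgeR quasi-likelihood test, Benjamini-Hochberg adjustment over all 16454 genes tested). Of all genes tested, 37.3% were called higher and 34.9% lower, so a call alone is common in this contrast, and the size of the changes carries more than their number. The median log2 fold change was -1.86 over the members and 0.04 over all genes.

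**Figure D1:**
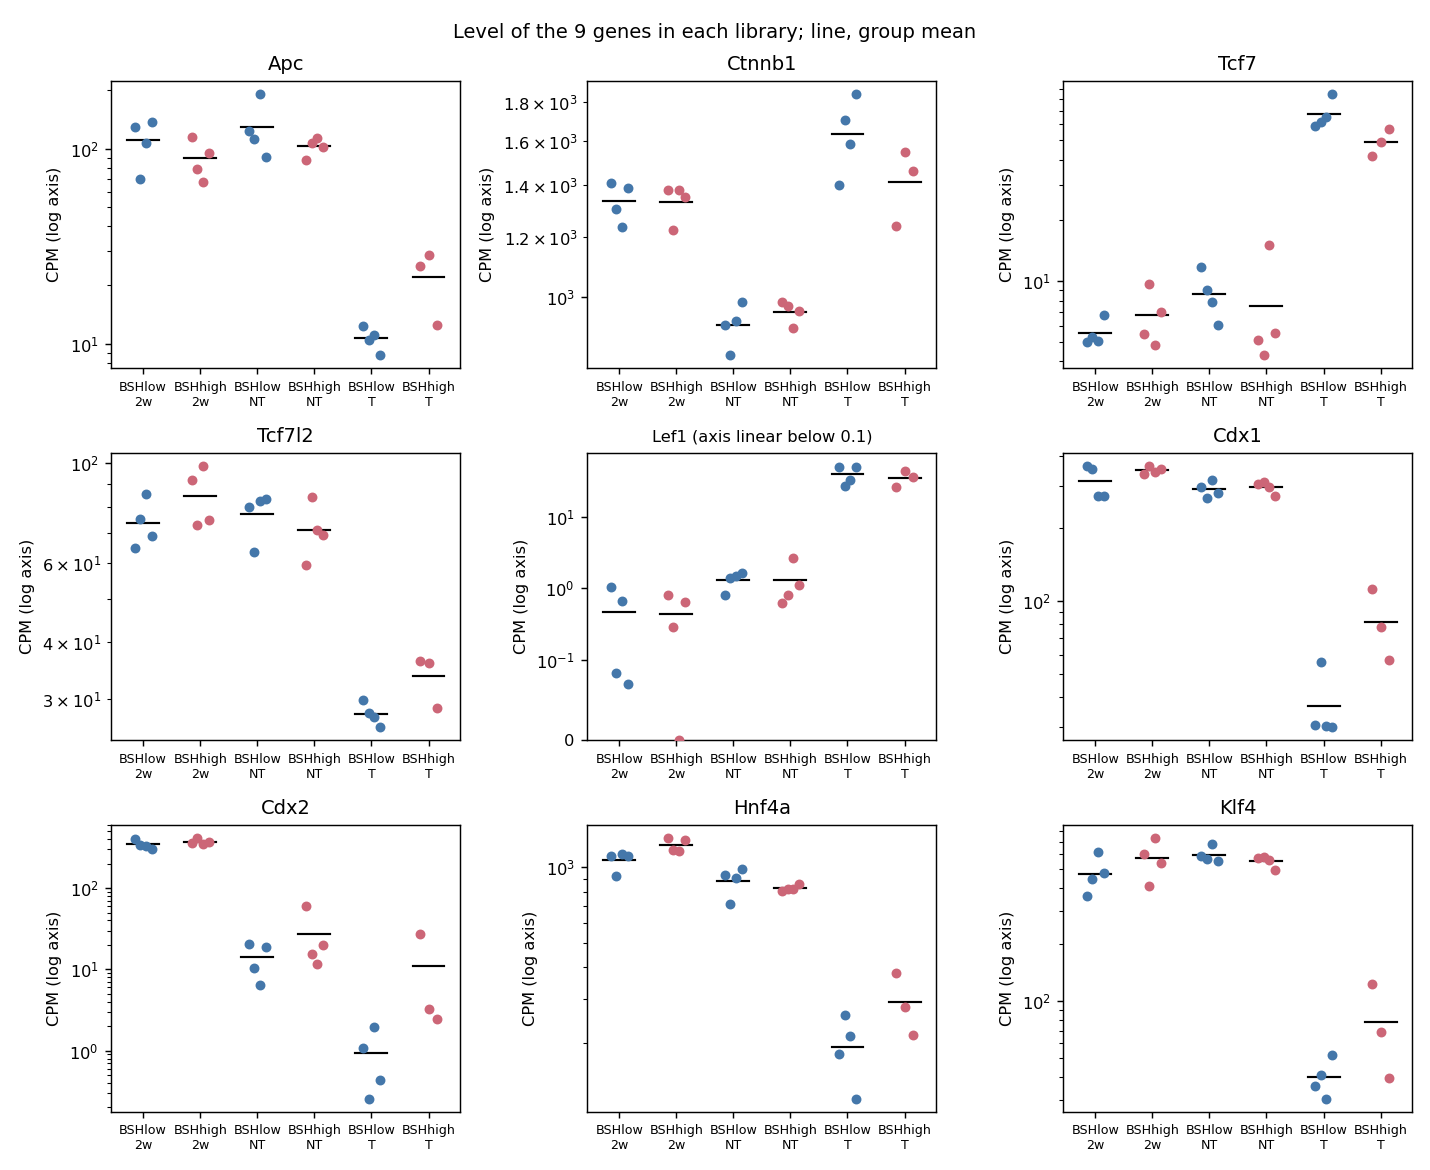
Level in CPM (logarithmic axis) of the 9 genes in the 23 libraries, by group; points are libraries, lines are group means, 2w is normal colon at 2 weeks and NT and T are non-tumor colon and tumor at 12 weeks. Tumors stand apart from non-tumor colon in every panel except that of Cdx2, where BF BSHhigh tumor a, at 27.6 CPM, lies within the non-tumor range, and Cdx2 is the gene that differs most between 2 and 12 weeks.

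Apc, on chromosome 18 (34220924 to 34322552, plus strand, mm10), stood at 123, 112, 190.3 and 90.4 CPM (counts scaled to the effective library size) in the 4 BF BSHlow non-tumor libraries and at 87.7, 107, 114 and 102 CPM in the BF BSHhigh ones. The BF BSHlow tumors held 12.3, 10.5, 11.1 and 8.75 CPM, and the BF BSHhigh tumors a, b and c held 25.1, 28.6 and 12.5 CPM. No tumor reached the lowest non-tumor library. The log2 fold change was -3.61 ± 0.27 (SE, adjusted p = 6.93e-08) in BF BSHlow and -2.22 ± 0.28 (adjusted p = 1.60e-05) in BF BSHhigh. Gene-level counts do not separate the floxed part of Apc from the rest, so they show the level of all Apc transcripts and not which allele they came from. The BF BSHlow tumors held 6.78% to 9.55% of the mean of their non-tumor colon.

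Ctnnb1, on chromosome 9 (120929216 to 120960507, plus strand), was higher in tumors of both strains. Non-tumor libraries ranged from 839 to 984 CPM over both strains, BF BSHlow tumors from 1400 to 1844 CPM and BF BSHhigh tumors from 1239 to 1547 CPM. The groups did not overlap, and the fold change was 1.76 in BF BSHlow (log2 0.81 ± 0.11, adjusted p = 1.20e-05) and 1.47 in BF BSHhigh (log2 0.56 ± 0.11, adjusted p = 8.24e-04). Annotated genes on the opposite strand overlap Apc (Gm10548), Ctnnb1 (Ulk4 and 4930593C16Rik), Tcf7 (A630014C17Rik), Lef1 (Gm43352) and Hnf4a (Hnf4aos). Others on the same strand overlap Ctnnb1 (Mir7090), Tcf7 (Gm26551), Tcf7l2 (Ppnr), Lef1 (Gm42449) and Hnf4a (Gm25881). How strand was set in the counting is not given in the sources used here.

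The 3 TCF/LEF members changed in opposite directions. Tcf7 (chromosome 11, 52252371 to 52283014, minus strand) encodes TCF1, which also acts in T cells, and rose from a mean of 8.65 ± 2.37 CPM (SD, n = 4) to 67.6 ± 11.7 CPM (n = 4) in BF BSHlow and from 7.51 ± 5.08 CPM (n = 4) to 49.2 ± 7.53 CPM (n = 3) in BF BSHhigh. Lef1 (chromosome 3, 131110471 to 131224356, plus strand), a second lymphoid and WNT factor, was low in non-tumor colon, with 10 to 44 counts, and reached 503 to 1022 counts in the tumors. Its log2 fold change, 4.88 ± 0.40 in BF BSHlow (adjusted p = 1.54e-07) and 4.72 ± 0.40 in BF BSHhigh (adjusted p = 8.24e-07), was the largest of the members. Tcf7l2 (chromosome 19, 55741820 to 55933654, plus strand), which encodes TCF4, the main TCF of normal intestinal epithelium, fell from 63.6 to 83.2 CPM in BF BSHlow non-tumor colon to 26.0 to 29.8 CPM in tumors (log2 -1.50 ± 0.13, adjusted p = 2.13e-07). In BF BSHhigh it went from 59.3 to 84.2 CPM to 28.6 to 36.4 CPM (log2 -1.08 ± 0.14, adjusted p = 1.72e-05).

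On a scale per kb of exon, which allows levels of different genes to be compared, the order within the family changed. In all 16 libraries of 2-week normal and 12-week non-tumor colon Tcf7l2 was above Tcf7 and Tcf7 above Lef1. In 7 of 7 tumors Tcf7 was above Tcf7l2, and in 5 of 7 Lef1 was as well. The mean level in BF BSHlow was 8.81 CPM per kb for Tcf7l2 and 3.30 for Tcf7 in non-tumor colon, against 3.16 and 25.8 in tumors. These lengths join all annotated exons, so isoforms shorter than that are understated. The log2 ratio of Tcf7 plus Lef1 counts to Tcf7l2 counts rose from -2.96 ± 0.39 (SD, n = 4) to 1.94 ± 0.31 (n = 4) in BF BSHlow and from -3.19 ± 0.86 (n = 4) to 1.31 ± 0.40 (n = 3) in BF BSHhigh, with no overlap in either strain. The two-sided exact permutation test gave p = 0.0286 for each, the smallest p these group sizes allow, and 0.0714 after adjustment over 5 tests, which does not pass 0.05.

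**Figure D2:**
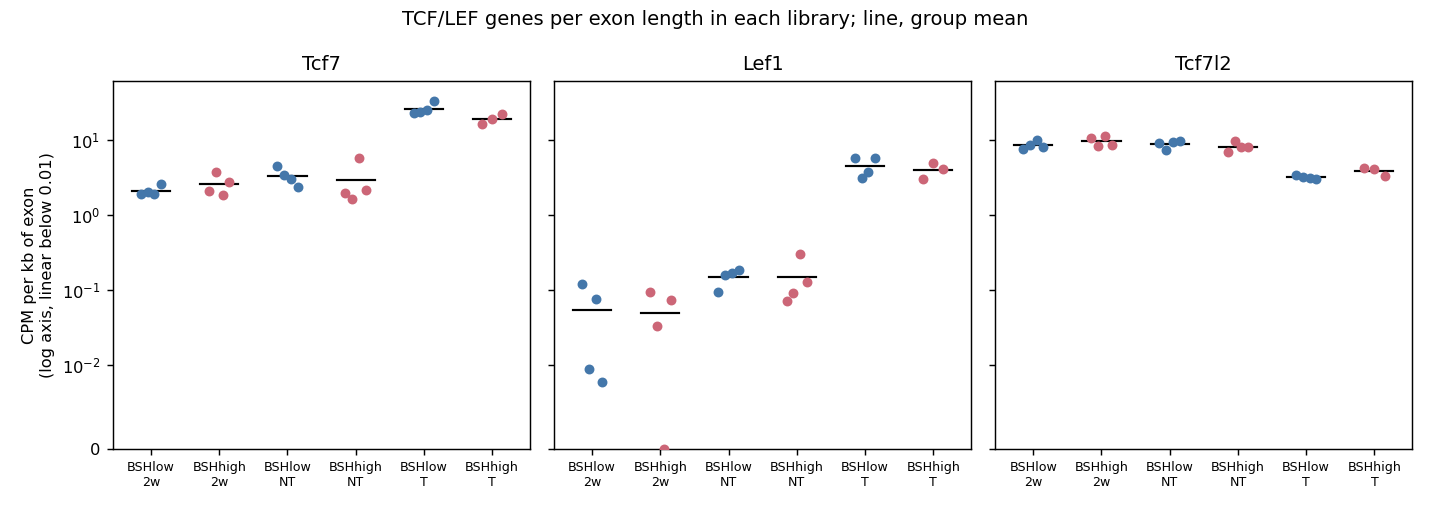
Level per kb of exon (CPM per kb, logarithmic axis that is linear below 0.01) of Tcf7, Lef1 and Tcf7l2 in each library; points are libraries and lines are group means. Tcf7 lies above Tcf7l2 in all 7 tumors and below it in the other 16 libraries.

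Tcf7 and Lef1 are also T cell genes, so T cell markers were set beside them. In the average over strains 0 of the 8 markers were higher and 2 lower in tumors (Cd8a, log2 -2.12 ± 0.63, and Cd2, -1.10 ± 0.46). Within BF BSHlow 0 were higher and 2 lower (median -1.13), and within BF BSHhigh 1 was higher and 0 lower (median 0.24). Their summed level was 10.3 to 50.3 CPM in BF BSHlow non-tumor colon and 6.31 to 22.1 CPM in the tumors, where Tcf7 and Lef1 rose. In BF BSHhigh it was 21.2 to 75.8 CPM in non-tumor colon and 36.7 to 51.6 CPM in tumors. In non-tumor colon the library with the most Tcf7 and Lef1, BF BSHhigh library 3 with 15.1 and 2.67 CPM, was also the one with 75.8 CPM of T cell and 262 CPM of B cell markers. Squamous epithelium can also express Tcf7, Lef1 or Klf4. Its summed markers went from 1.48 to 2.39 CPM in BF BSHlow non-tumor colon to 52.2 to 162 CPM in tumors. In BF BSHhigh they went from 1.69 to 3.33 CPM to 23.9 to 44.0 CPM. The part of either cell type in the rise of Tcf7 and Lef1 was not tested.

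The intestinal factors fell by different amounts. Klf4 (chromosome 4, 55527143 to 55532466, minus strand) fell the most: non-tumor libraries of both strains held 496 to 678 CPM, BF BSHlow tumors 30.5 to 51.9 CPM and BF BSHhigh tumors 39.1 to 124 CPM. Its log2 fold change was -3.92 ± 0.29 (adjusted p = 6.32e-08) in BF BSHlow and -2.85 ± 0.30 (adjusted p = 4.43e-06) in BF BSHhigh. Cdx1 (chromosome 18, 61018862 to 61036199, minus strand) went from 267 to 318 CPM in BF BSHlow non-tumor colon to 30.1 to 55.9 CPM in tumors, and from 274 to 313 CPM to 57.1 to 112 CPM in BF BSHhigh. The corresponding log2 changes were -3.0 ± 0.22 (adjusted p = 6.84e-08) and -1.86 ± 0.23 (adjusted p = 1.67e-05). Hnf4a (chromosome 2, 163506808 to 163572910, plus strand) was at 120 to 258 CPM in BF BSHlow and 216 to 380 CPM in BF BSHhigh tumors against 716 to 981 CPM in non-tumor colon. Its log2 fold change was -2.22 ± 0.21 (adjusted p = 6.74e-07) in BF BSHlow and -1.51 ± 0.23 (adjusted p = 8.31e-05) in BF BSHhigh. Gene counts do not separate transcripts from its 2 RefSeq starts.

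Cdx2 (chromosome 5, 147300805 to 147307270, minus strand) was lower in 12-week non-tumor colon than in 2-week normal colon, tissues that also differed in cell makeup. BF BSHlow non-tumor libraries held 20.7, 10.3, 6.34 and 18.7 CPM and BF BSHlow tumors 1.08, 0.257, 1.96 and 0.440 CPM, which are 22, 5, 41 and 9 counts. The ranges did not overlap, and the log2 fold change was -3.91 ± 0.89 (adjusted p = 0.00148). BF BSHhigh non-tumor libraries held 60.5, 15.5, 11.8 and 20.2 CPM, and BF BSHhigh tumors a, b and c held 27.6, 3.22 and 2.43 CPM. Tumor a was within the non-tumor range and the change, -1.30 ± 0.83, did not pass (adjusted p = 0.195). Without tumor a it was -3.26 ± 0.82 (adjusted p = 0.00491), and without BF BSHhigh non-tumor library 1 it was -0.53 ± 0.80 (adjusted p = 0.603).

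**Figure D3:**
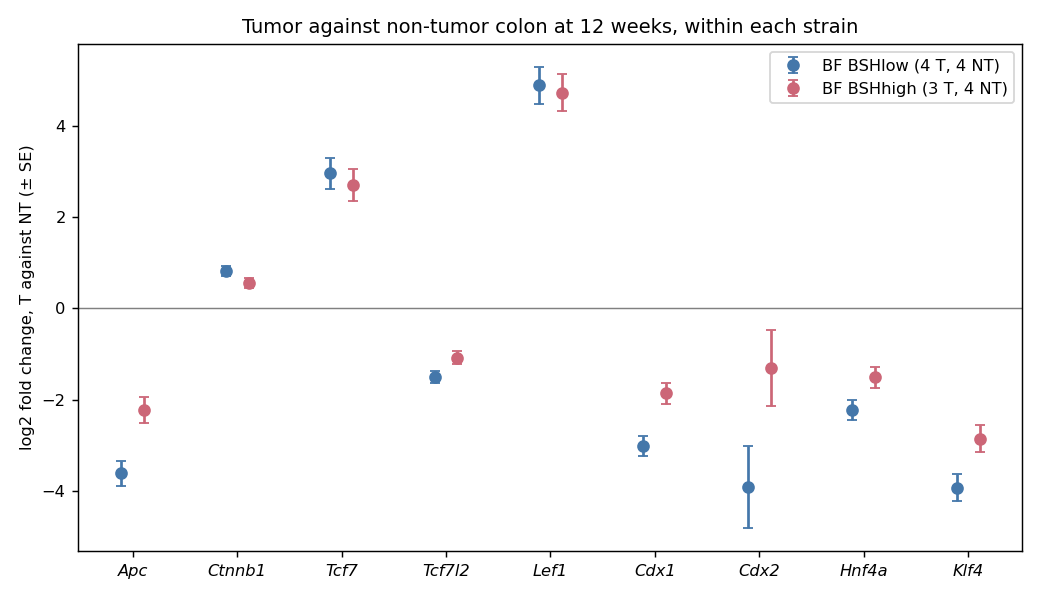
Log2 fold change of tumor against non-tumor colon for each gene within BF BSHlow (blue) and BF BSHhigh (red); bars are the standard error of the edgeR fit. Tcf7, Lef1 and Ctnnb1 lie above 0 and the other 6 below 0 in both strains, with Cdx2 in BF BSHhigh, -1.30 ± 0.83, not past the test.

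Within BF BSHlow 3 members rose and 6 fell, against 33.3% of all genes called higher and 32.2% called lower. Within BF BSHhigh 3 rose and 5 fell, against 29.4% and 27.2%. Both strains were fitted with their own non-tumor libraries in one model.

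The tissue samples differ in the cells they hold, and in bulk tissue fewer cells of a type and less RNA per cell cannot be told apart. Of 6 epithelial markers, 5 were lower and 1 higher (Krt18) in tumors, with a median log2 change of -0.63. All 6 smooth muscle (median -4.94), 4 of 4 enteric glia and neuron (-4.20), 4 of 4 B cell (-5.34) and 4 of 4 goblet cell markers (-5.94) were lower. All 4 endothelial markers (1.04) and the 3 squamous markers tested (4.61) were higher, as were 3 of 6 fibroblast markers, with 1 lower. Of 4 small intestine markers 2 were higher (Defa24 and Lyz1) and 1 lower. The part of cell makeup in the members' changes was not tested as a whole, but the fit was repeated with the epithelial markers in place of total counts as the scale. This scale moved the median of all genes to 0.43 and the share of calls that were higher from 51.6% to 70.4%. All 9 members kept their direction and their call under it: Lef1 5.24, Tcf7 3.23, Ctnnb1 1.09, Tcf7l2 -0.89, Hnf4a -1.52, Cdx1 -2.08, Cdx2 -2.34, Apc -2.52 and Klf4 -2.99 in log2 fold change.

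The neighbours of the 9 genes in the pathway were described from lists chosen with earlier results of these data known. In the same average over strains 37.3% of all genes were called higher and 34.9% lower. All 16 genes known as beta-catenin targets were higher (median log2 fold change 2.67, against 0.04 over all genes), led by the secreted WNT inhibitor Notum (7.53 ± 0.61, adjusted p = 6.81e-08) and the transcription factor Sp5 (6.32 ± 0.44, adjusted p = 1.68e-08). Notum had a mean of 1.60 CPM in BF BSHlow non-tumor colon and 234 CPM in BF BSHlow tumors. Of 12 WNT receptor and dishevelled genes 6 rose and 4 fell, Fzd6 (1.06 ± 0.13) and the co-receptor Lrp5 (0.64 ± 0.07) being the largest rises and Fzd5 (-2.38 ± 0.19) and Fzd8 (-1.40 ± 0.12) the largest falls. The list around the destruction complex holds 10 other genes, with a median of 0.08. Some of them, such as Jup and Ctnnbip1, lie outside the complex itself. In this list 3 rose, with the kinase Csnk1a1 at 0.25 ± 0.07 and the plakoglobin gene Jup at 0.24 ± 0.08. Of the 2 that fell, the ubiquitin ligase subunit Fbxw11 was at -0.17 ± 0.07. The other had a mean under 1 CPM and is not named. Apc itself was at -2.92 ± 0.19 in this average.

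Among 11 TCF cofactors and repressors 7 rose and 3 fell. The co-repressors Tle3 (1.66 ± 0.14) and Tle2 (1.41 ± 0.38) rose, while Tcf7l1 (-2.39 ± 0.15), the fourth TCF gene, and Tle4 (-1.60 ± 0.25) fell. Mean Tcf7l1 was 6.09 and 8.49 CPM in BF BSHlow and BF BSHhigh tumors and 36.9 and 37.8 CPM in non-tumor colon. In 2-week normal colon it was 5.14 and 3.82 CPM, so the tumor means of Tcf7l1 were not below those of 2-week colon. Of 23 other intestinal transcription factors 3 rose and 15 fell (median -0.65). Onecut2 (7.68 ± 0.71) and Prdm1 (1.96 ± 0.16) rose, and Creb3l3 (-5.43 ± 0.71), a lipid metabolism regulator, and Nr5a2 (-4.96 ± 0.33), a nuclear receptor of crypt cells, fell. Of 20 brush border and differentiated colonocyte genes, a list that also holds the goblet cell genes Muc2 and Tff3, 18 fell and 1 rose (median -3.59). The water channel Aqp8 (-8.31 ± 0.73) and the chloride exchanger Slc26a3 (-7.95 ± 0.55) fell, and the sodium exchanger Slc9a3 rose (3.26 ± 0.63). Mean Slc9a3 was 308.7 and 321.1 CPM in BF BSHlow and BF BSHhigh tumors and 17.97 and 58.98 CPM in non-tumor colon. In 2-week normal colon it was 203.9 and 401.1 CPM, so the tumor means of Slc9a3 lay between those of 2-week colon.

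The second question was whether the strain changed these genes. In tumors no member passed the test between BF BSHhigh and BF BSHlow (edgeR, 7 libraries, adjusted p from 0.118 to 0.806), while 0.47% of all 15325 genes were called higher and 0.0392% lower. At an unadjusted p under 0.05 there were 6 of 9 members, against 12.7% of all genes. Every member that was lower in tumors had a positive estimate, that is, a higher mean level in BF BSHhigh than in BF BSHlow tumors. The estimates were 1.15 ± 0.28 for Cdx1 (adjusted p = 0.118), 1.04 ± 0.27 for Apc (0.140), 3.54 ± 0.99 for Cdx2 (0.174), 0.94 ± 0.35 for Klf4 (0.310), 0.27 ± 0.11 for Tcf7l2 (0.382) and 0.59 ± 0.27 for Hnf4a (0.416). The 3 members that were higher in tumors had negative ones, -0.47 ± 0.16 for Tcf7 (0.271), -0.22 ± 0.13 for Ctnnb1 (0.560) and -0.20 ± 0.27 for Lef1 (0.806).

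For Apc, Cdx1 and Cdx2 all 3 BF BSHhigh tumors lay above all 4 BF BSHlow tumors, which held for 7.93% of all genes. For Tcf7 all 3 lay below, which held for 3.89%. The ranges of Ctnnb1, Tcf7l2, Lef1, Hnf4a and Klf4 overlapped. The calls depended on the tool: DESeq2 called Apc (adjusted p = 0.0143) and Cdx1 (0.0044) and gave no adjusted p for Cdx2, and the edgeR fit over all 23 libraries called Apc (0.0266), Cdx1 (9.12e-04), Cdx2 (0.00803) and Klf4 (0.0428). With limma-voom 0 members were called, as with edgeR when any single library other than tumor c was left out. Without tumor c, Apc passed (1.32 ± 0.17, adjusted p = 0.0208).

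The 3 BF BSHhigh tumors were unlike each other. Tumor a had the highest Cdx1, Cdx2, Hnf4a and Klf4 of all 7 tumors and the lowest Ctnnb1 and Tcf7, and tumor c was closest to the BF BSHlow tumors for Apc, Cdx1, Hnf4a, Klf4 and Tcf7l2. As a percent of the mean of its own non-tumor colon, Klf4 was at 22.4%, 12.5% and 7.08% in tumors a, b and c and at 5.12% to 8.71% in the BF BSHlow tumors. Cdx1 was at 37.6%, 26.2% and 19.2% against 10.3% to 19.2%. Without tumor a the Cdx2 estimate between strains was 1.57 ± 0.72 (adjusted p = 0.775).

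Markers of mature epithelium followed the same order of tumors. The summed goblet cell markers were at 19.3%, 5.56% and 2.03% of non-tumor colon in tumors a, b and c and at 0.314% to 0.719% in the BF BSHlow tumors. The sum over brush border and differentiated colonocyte genes was at 40.8%, 19.99% and 15.7% against 7.86% to 17.5%. That list also holds the goblet cell genes Muc2 and Tff3, and Muc2 is in both sums. Between strains 2 of the 4 goblet markers and 2 of the 19 brush border genes tested were called higher, with adjusted p from 0.0406 to 0.0481. No gene was called in this comparison when BF BSHlow tumor 1, 3 or 4 was left out. Smooth muscle markers were at 9.20%, 5.75% and 4.75% against 2.96% to 6.37%, with 0 called, and T cell markers at 142%, 101% and 108% against 19.4% to 68.2%, with 0 of 8 called. Whether non-tumor mucosa in the samples or the tumor cells gave these transcripts was not tested.

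**Figure D4:**
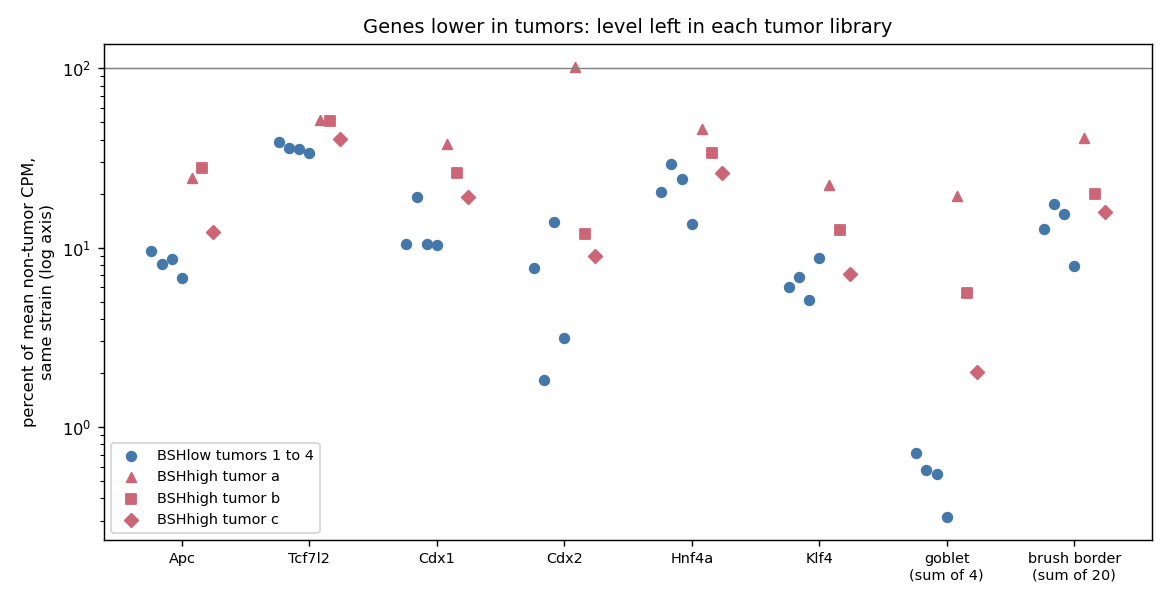
Level of the 6 genes that were lower in tumors, and of the summed goblet cell and brush border markers, in each tumor library as a percent of the mean non-tumor CPM of the same strain (logarithmic axis, the line marks 100%). Both sums hold Muc2. BF BSHhigh tumor a lies highest in every column except Apc, where tumor b, at 27.9%, is highest.

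The difference between the strains in the tumor change itself was tested as an interaction. No member passed (adjusted p from 0.0948 for Apc, 1.39 ± 0.36, to 0.979 for Lef1, -0.16 ± 0.55), against 0.991% of all genes. At an unadjusted p under 0.05 there were 6 of 9 members, against 9.6% of all genes. This test shares its tumor libraries with the comparison between tumors, so it is no separate evidence. The neighbouring WNT lists gave 0 calls between tumors: 0 of 16 beta-catenin targets (median -0.33), 0 of 12 receptor and dishevelled genes (-0.14), 0 of 9 destruction complex genes tested (-0.10), 0 of 11 cofactors (-0.06) and 0 of 23 other intestinal factors (0.28), where the median of all genes was -0.03. The ratio of Tcf7 plus Lef1 to Tcf7l2 was lower by 0.62 on the log2 scale in BF BSHhigh tumors, with overlapping ranges (0.89 to 1.69 against 1.66 to 2.37, two-sided exact permutation p = 0.0857, adjusted 0.143).

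In tissue without tumor the strains were close. In non-tumor colon at 12 weeks 0 of 9 members passed the edgeR test and 0 had an unadjusted p under 0.05, where 0% of all 14933 genes passed and 9.22% had an unadjusted p under 0.05. DESeq2 called 169 genes there and no member. The estimates were between -0.33 ± 0.20 (Apc) and 0.94 ± 0.56 (Cdx2), and Cdx2 rested on BF BSHhigh library 1 at 60.5 CPM. In normal colon at 2 weeks 0 of the 8 members tested passed and 0 had an unadjusted p under 0.05, against 0.00727% and 6.8% of all 13752 genes. Hnf4a was higher in all 4 BF BSHhigh libraries (1163 to 1313 CPM) than in the 4 BF BSHlow ones (920 to 1128 CPM), a difference of 0.20 ± 0.11 with an adjusted p of 0.803, and 2.09% of all genes tested separated in this direction. Lef1, with 0 to 14 counts in these libraries, was left out by the filter on low counts. The wider pathway lists gave 0 calls at both times.

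The third comparison set non-tumor colon at 12 weeks beside normal colon at 2 weeks, and here Cdx2 stood apart from the other members. The 8 libraries at 2 weeks held 307 to 418 CPM of Cdx2 and the 8 at 12 weeks 6.34 to 60.5 CPM, an 18.5-fold lower level (log2 -4.21 ± 0.33, edgeR adjusted p = 4.49e-08). No 12-week library came near the 2-week range, and leaving out any library kept the value between -4.61 and -4.09. Its sister gene Cdx1, with 272 to 364 CPM at 2 weeks and 267 to 318 CPM at 12 weeks, differed by -0.18 ± 0.07 (adjusted p = 0.0424), with overlapping ranges. That call was lost, for example, in the fit over all 23 libraries (adjusted p = 0.257), and the direction turned on the epithelial scale (0.09).

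Of the other members Hnf4a (-0.43 ± 0.07, adjusted p = 1.37e-04) and Ctnnb1 (-0.51 ± 0.06, adjusted p = 2.81e-06) fell. Lef1 was higher (1.55 ± 0.55, adjusted p = 0.0228) with 10 to 44 counts against 0 to 14. Without BF BSHhigh non-tumor library 3, the one with the most T and B cell markers at 12 weeks, Lef1 was at 1.23 ± 0.55 and did not pass (adjusted p = 0.0657). In all 1 member rose and 4 fell, against 33% of all genes called higher and 30.2% called lower. Apc (0.21 ± 0.16, adjusted p = 0.268), Klf4 (0.14 ± 0.12, 0.325), Tcf7 (0.40 ± 0.25, 0.177) and Tcf7l2 (-0.09 ± 0.09, 0.415) did not pass. On the epithelial scale, which put the median of all genes at 0.29, Cdx2 was at -3.93, Ctnnb1 at -0.23 and Hnf4a at -0.15, the last no longer called. On that scale Apc (0.48, adjusted p = 0.0143), Klf4 (0.43, adjusted p = 0.00122) and Tcf7 (0.68, adjusted p = 0.04) were called higher.

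The 12-week tissue also held other cells. All 6 smooth muscle markers were higher at 12 weeks (median log2 5.42), as were 6 of 6 fibroblast (3.39), 4 of 4 endothelial (1.96), 4 of 4 enteric glia and neuron (2.98) and 4 of 4 B cell markers (2.91). Summed smooth muscle markers were at 7.09 to 206 CPM at 2 weeks and at 1513 to 8473 CPM at 12 weeks, while summed epithelial markers were at 12452 to 16982 CPM and at 9353 to 12602 CPM. Of the 20 brush border and colonocyte genes 15 were lower and 1 higher, with Alpi (-6.35 ± 0.32) and Fabp2 (-5.98 ± 0.35) the furthest down, and among the other intestinal factors Isx was lower (-5.31 ± 0.42). These 3 genes were picked by size after their values were seen.

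Hox genes, whose order along their clusters follows the body axis, were added for the same reason. Of 11 posterior Hox genes tested 8 were higher at 12 weeks and 1 lower (median 1.92), with Hoxd13 at a mean of 0.0797 and 0.169 CPM in BF BSHlow and BF BSHhigh at 2 weeks and of 101 and 108 CPM at 12 weeks. Of 8 anterior ones tested 6 were lower and 1 higher (median -2.27), with Hoxd4 (-4.83 ± 0.42) and Hoxb3 (-4.71 ± 0.28) the furthest down. The summed anterior genes were at 53.5 to 92.8 CPM at 2 weeks and at 16.5 to 24.6 CPM at 12 weeks, without overlap. Time on the diet and with the bacteria, the layers of the wall taken and the stretch of colon taken cannot be told apart in this comparison.

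**Figure D5:**
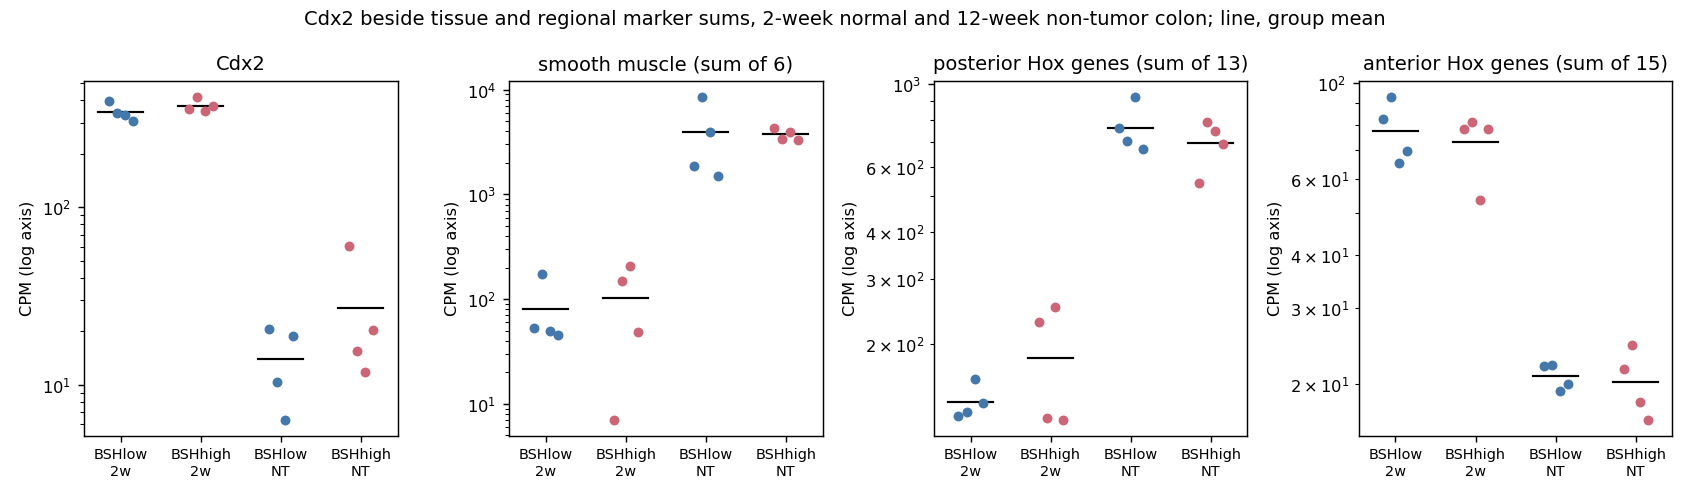
Cdx2 and the summed CPM of smooth muscle, posterior Hox and anterior Hox genes (logarithmic axes) in 2-week normal colon and 12-week non-tumor colon of both strains; points are libraries and lines are group means. Cdx2 is at 307 to 418 CPM at 2 weeks and at 6.34 to 60.5 CPM at 12 weeks, where smooth muscle and posterior Hox sums are higher and anterior Hox sums lower.

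Read across all 6 groups, Apc was highest in BF BSHlow non-tumor colon (129 ± 43.1 CPM, SD, n = 4), followed by BF BSHlow at 2 weeks, BF BSHhigh non-tumor colon and BF BSHhigh at 2 weeks, whose ranges overlapped from one to the next. BF BSHhigh tumors (22.1 ± 8.44 CPM, n = 3) and BF BSHlow tumors (10.7 ± 1.49 CPM, n = 4) followed without overlap. Ctnnb1 ran from tumors (1634 ± 188 CPM, n = 4, in BF BSHlow) through 2-week colon, which overlapped with BF BSHhigh tumors, to non-tumor colon at 12 weeks (918 ± 59.9 CPM, n = 4, in BF BSHlow). Its tumor level therefore stood 1.76-fold above non-tumor colon, but the 2-week libraries (1223 to 1410 CPM) reached into the tumor range.

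Cdx2 was the only member whose 2-week groups (345 ± 39.0 and 374 ± 31.3 CPM, n = 4 each) stood above non-tumor colon without overlap while non-tumor colon overlapped with a tumor group. Per kb of exon Cdx1 and Cdx2 were close at 2 weeks, 180 and 153 CPM per kb in BF BSHlow, but at 12 weeks Cdx1 was at 166 and Cdx2 at 6.20 CPM per kb in BF BSHlow non-tumor colon. Ctnnb1 was the most abundant member per kb in BF BSHlow tumors, at 315 CPM per kb.

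Finally the genes most like each member within groups were listed, from the correlation of deviations from the group mean over the 23 libraries, among 14399 genes. Hnf4a varied with the brush border motor genes Myo6 and Myo1a (Pearson r = 0.94 for both, 0.88 and 0.87 without the 2 libraries farthest from the median), and Klf4 with Pmp22 (0.92, and 0.90 without 2 libraries) and Mfsd6 (0.87 and 0.81). Cdx2 varied with Tmem139 (0.92 and 0.86) and Apol10a (0.88 and 0.78), and Cdx1 with Slc16a5 (0.86 and 0.67) and Tspan8 (0.83 and 0.75). The closest to Apc were Ncoa3 (0.86 and 0.82) and Magi3 (0.85 and 0.77), and the closest to Ctnnb1 were Epb41l5 (0.83 and 0.80) and Gnl3l (0.80 and 0.72). Tcf7 was nearest to Ripor2 (0.85 and 0.72) and Snn (0.83 and 0.65), Tcf7l2 to Sfxn5 (0.82 and 0.82) and Gpr137b-ps (0.77 and 0.76), and Lef1 to Slc35e3 (0.76 and 0.70) and Ccl20 (0.75 and 0.61). Each is the best of many, over libraries that share tissue makeup and depth, and is a description. The rank correlation (Spearman) was lower for some pairs, with 0.77 for Hnf4a and Myo6 and 0.62 for Hnf4a and Myo1a. For Cdx1 and Slc16a5 it was 0.64, while for Klf4 and Pmp22 it was 0.94. Between members the highest value was 0.64, for Cdx1 and Hnf4a, and the lowest -0.41, for Ctnnb1 and Cdx2.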

How the data were processed

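RNA from colon tissue of 23 mouse samples was sequenced. The deposited values are RSEM expected counts for each gene, which the authors obtained from Cutadapt-trimmed reads placed on mm10 by STAR. The labels name a total RNA and the methods an mRNA library kit. Expected counts were rounded (4.237% were not whole, none of them of the 9 genes) and 1 row with a text cell was left out. The 3 BF BSHhigh tumor columns repeat the names of the BF BSHlow tumors and were assigned as a group by matching their values to a supplementary table, so they carry letters. Tests used edgeR 4.0.16 (quasi-likelihood, TMM, filterByExpr, prior count 2 for log2 CPM) in R 4.3.3, with p adjusted by Benjamini-Hochberg over all genes tested and calls at 0.05. DESeq2 1.42.0, limma 3.58.1 (voom), other scalings, no filter, all 23 libraries in one fit and leaving out each library were alternatives. On simulated counts for the 7 tumor libraries, edgeR recovered 179 of 200 genes changed by a log2 fold of 2 among 15325, with 5 false calls. The simulated spread followed the trend over all genes, and no simulated library stood apart from its group. The recovery therefore does not measure the power in the real tumors, where the BF BSHhigh libraries were unlike each other. Exact permutation tests of the ratio added 0.5 to each count. Exon lengths came from GENCODE M21 (55449 identifiers matched). Named genes were the 9 members, up to 2 higher and 2 lower called genes with a mean of at least 1 CPM for each list in tumor against non-tumor colon, and the 2 genes most like each member. Alpi, Fabp2, Isx and the Hox genes named between 2 and 12 weeks fall outside this rule and were chosen after their values were seen. The members and lists were chosen with earlier results of these data known, and the Hox lists after the Cdx2 values were seen.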

Additional observations from a re-analysis of the deposited data

Results flagged for a closer look

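In groups of 4 libraries a single value far from the others was looked for (Dixon's test 45 groups checked), and chance alone gives about 1 in 20 groups. Tcf7 was high in BF BSHhigh non-tumor library 3 (15.1 CPM), where T and B cell markers were also highest, and in BF BSHlow library 4 at 2 weeks (6.75 CPM). Tcf7l2 was low in BF BSHlow non-tumor library 2 (63.6 CPM). Cdx1 was high in BF BSHlow tumor 2 (55.9 CPM), a library without which its interaction with strain passed (1.42, adjusted p = 0.0244). Hnf4a was low in BF BSHlow library 2 at 2 weeks (919.7 CPM).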

How the results depend on the processing

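In tumor against non-tumor colon all 9 members kept their call and direction under every alternative in the average over strains and in BF BSHlow, and 8 or 9 were called in BF BSHhigh. Between tumors the number of members called was 0, but 2 with DESeq2, 4 with all 23 libraries in one fit, 1 on the epithelial scale (added after seeing the data) and 0 to 1 when single libraries were left out. For the interaction it was 0, but 2 with DESeq2, 1 with all 23 libraries and 0 to 3 with single libraries left out (3 without BF BSHhigh tumor c, 1 without BF BSHlow tumor 2). From 2 to 12 weeks it was 5, and 3 to 5 with single libraries left out (3 without BF BSHhigh non-tumor library 3). There the fit over all 23 libraries lost Cdx1. The epithelial scale lost Cdx1 and Hnf4a and called Apc, Tcf7 and Klf4 higher. The cause was not tested. Counts over all genes moved too: between tumors 78 genes were called, against 741 with DESeq2, 806 with all 23 libraries, 344 without the filter, 291 on the epithelial scale, 43 with limma-voom and 0 to 254 with libraries left out, and for the interaction 163 against 420, 273 and 0 with DESeq2, all 23 libraries and limma-voom and 88 to 370 with libraries left out. DESeq2 called 169 genes between strains in non-tumor colon and 53 at 2 weeks, where edgeR called 0 and 1. At 2 weeks it was 6 without the filter and 0 to 43 with libraries left out. On the epithelial scale 70.4% of calls were higher in tumors, against 51.6%, and 78.1% at 12 weeks, against 52.2%.

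Estimates near 0 turned. Lef1 was at 0.06 in the interaction with limma-voom and at 0.05 between strains in non-tumor colon on the epithelial scale, and on that scale Tcf7l2 (0.19) and Cdx1 (0.09) turned from 2 to 12 weeks. With libraries left out the interaction ranged from -0.45 to 0.34 for Tcf7 and from -0.40 to 0.48 for Lef1. Between strains in non-tumor colon it was -0.65 to 0.22 for Lef1 and -0.01 to 0.06 for Cdx1, and at 2 weeks -0.05 to 0.03 for Ctnnb1. The TCF ratio between strains ranged from -0.62 to 0.06 in non-tumor colon and from -0.22 to 0.27 at 2 weeks, where it was -0.33 with Lef1 alone.

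Replicate numbers in the labels were tested as a replicate block. Same-numbered libraries correlated at -0.0835 to 0.158 (BF BSHlow tumor and non-tumor), -0.142 to 0.158 (non-tumor, strains) and -0.096 to 0.26 (2 weeks). Some libraries correlated best with their own number and others did not. Libraries of different strains came from different mice, since each group was given only its own strain. For BF BSHlow tumor and non-tumor colon these values cannot decide whether same-numbered libraries came from the same mouse. Tissues of the same mouse need not deviate together. With the block 9, 0 and 0 members were called in these 3 comparisons, as without it. In BF BSHlow 8893 genes were called with the block and 9300 without it. Lef1 at 0 to 14 counts in 2-week colon, and Cdx2 at 5 to 41 counts in BF BSHlow tumors, are limited by depth.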
